A study of Mus musculus with 8 samples.

Results

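Cathepsins are the main proteases of lysosomes, the acidic compartment in which cells break down proteins. The 10 genes described here are 8 cathepsin genes (Ctsa, Ctsb, Ctsc, Ctsd, Ctsh, Ctsl, Ctss and Ctsz), Lgmn, which codes for legumain, a lysosomal protease that cuts after asparagine, and Cst3, which codes for cystatin C, a secreted inhibitor of cysteine cathepsins. They were chosen by symbol, with earlier results of these data known, and all 10 were found among the 16888 genes of the deposited table. Expression was measured by RNA sequencing of whole mouse pancreas in 8 samples, and every sample came from a mouse treated with repeated cerulein injections. Cerulein is a cholecystokinin analogue, and repeated doses cause acute pancreatitis in mice. In 4 samples, called CKO1 to CKO4, Anxa1 was knocked out in myeloid cells, and in 4 samples, called WT1 to WT4, the mice carried Anxa1 flox/flox alleles and served as controls. The labels give neither the Cre line nor the age of the mice, no group without cerulein was analysed here, and the labels do not say whether replicates were separate animals, so p-values measure the spread between samples.

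In the pancreas, digestive proteases are made as inactive zymogens, and cathepsins are known for acting on one of them, trypsinogen, when lysosomes and zymogen granules meet during pancreatitis. Cathepsin B activates trypsinogen, cathepsin L inactivates trypsinogen and trypsin, and cathepsin D can activate cathepsin B. In macrophages and other antigen-presenting cells the same family degrades engulfed proteins and trims the invariant chain of MHC class II, a task in which cathepsin S is prominent. The question asked of these genes was how their transcripts differed between the inflamed pancreas of CKO and WT mice.

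Of the 10 genes, 6 belong to the papain family, whose members cut with a catalytic cysteine. The stretches below are the 45 coding bases around the codon of that cysteine, which is in capitals, taken from the GENCODE M21 transcripts. They are shown because the reads of related genes can only be told apart where their sequences differ.
Ctsb: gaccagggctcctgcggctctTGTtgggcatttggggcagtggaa
Ctsl: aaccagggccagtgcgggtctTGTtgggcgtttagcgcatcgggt
Ctss: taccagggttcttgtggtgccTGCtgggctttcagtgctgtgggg
Ctsh: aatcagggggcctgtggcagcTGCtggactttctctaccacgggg
Ctsc: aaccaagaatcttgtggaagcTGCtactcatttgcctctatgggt
Ctsz: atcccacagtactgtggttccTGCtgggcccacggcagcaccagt

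Ctsb and Ctsl were the closest pair, with 33 of 45 bases identical (73.3%), and Ctsb and Ctsz the most distant, with 19 of 45 (42.2%). No pair shared a run of more than 11 bases in this stretch, which is among the most conserved of the family. Over the whole coding sequences, 0 of the windows of 50 bases in Ctsa, Ctsb, Ctsc, Ctsh, Ctsl, Ctss, Ctsz, Lgmn or Cst3 occurred in a transcript of another gene. In Ctsd, 760 of 1181 windows also occurred in transcripts of Gm49369, an annotated gene that was not analysed here, so reads of these 2 genes could not be told apart there. The deposited values imply gene lengths beyond the coding part, such as 3576 bases for Ctsl against 1002 coding bases. Sequence outside the coding parts was not searched for shared windows.

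Levels are in RPKM, a unit inferred from the deposited values, whose header names none. RPKM is the number of reads per kilobase of gene and scaled to the total reads of the library. Where 4 values are given for a group, they are those of its libraries 1 to 4, in that order. The library totals that the values imply ran from 30469002 to 34359802 reads, and the 10 genes had between 420 reads (Ctss in CKO1) and 69177 reads (Ctsl in WT2) in a library. Acinar cell markers marked every library as pancreas, with all 7 above 0 throughout and a summed level of 102795 to 139347 RPKM. Anxa1, the targeted gene (chromosome 19, 20373428 to 20390944 of mm10, minus strand), was at 4.76 to 7.13 RPKM in CKO and 7.05 to 14.7 RPKM in WT (log2 change -0.73, adjusted p = 0.0417 by limma). The groups of Anxa1 overlapped by CKO4 and WT3, and its call was lost in 10 of 15 other settings, among them the omission of CKO1, CKO2, CKO3, WT1, WT2 or WT4, with an adjusted p of at most 0.108 in limma. WT2 stood apart, with adipocyte markers summing to 133 RPKM against 23.9 to 38.3 RPKM in the other 7 libraries. B and plasma cell markers summed to 13.2 RPKM in WT2 and 4.54 RPKM in WT3, against 0.142 to 0.496 RPKM in the other 6, and T cell markers to 1.76 and 0.647 RPKM, against 0.0209 to 0.192 RPKM. Of the 10 genes, 8 had their highest level in WT2.

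One gene of the 10 passed the test between the groups, and it was cathepsin L. Ctsl fell 2.01-fold, while Ctsb, Ctsd and the other cathepsins, legumain and cystatin C had smaller differences that did not pass. The test was limma on log2(RPKM + 1), fitted on the 8513 genes that reached 1 RPKM in 4 or more libraries, with Benjamini-Hochberg adjustment over all of them and a threshold of 0.05. All 10 genes entered it. Of all tested genes, 7.17% passed in either direction, 5.74% as lower and 1.42% as higher in CKO, so 1 lower and 0 higher genes of 10 are close to that background. Before adjustment, 5 of the 10 genes had a p under 0.05, all lower in CKO, where 27.3% of all tested genes did in either direction and 22.7% as lower. The log2 change was negative for all 10 genes, as it was for 70.4% of all tested genes, and that of Lgmn turned positive (0.020) when each library was centred on its median. The median log2 change was -0.24 over the 10 genes and -0.12 over all tested genes. Median centring moved the latter to -0.02 and the former to -0.13, and changed the split of calls over all genes from 489 lower and 121 higher to 267 lower and 305 higher, so the changes are best read against the median of all genes. In bulk tissue, fewer cells of a type and less RNA per cell cannot be told apart.

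**Figure D1:**
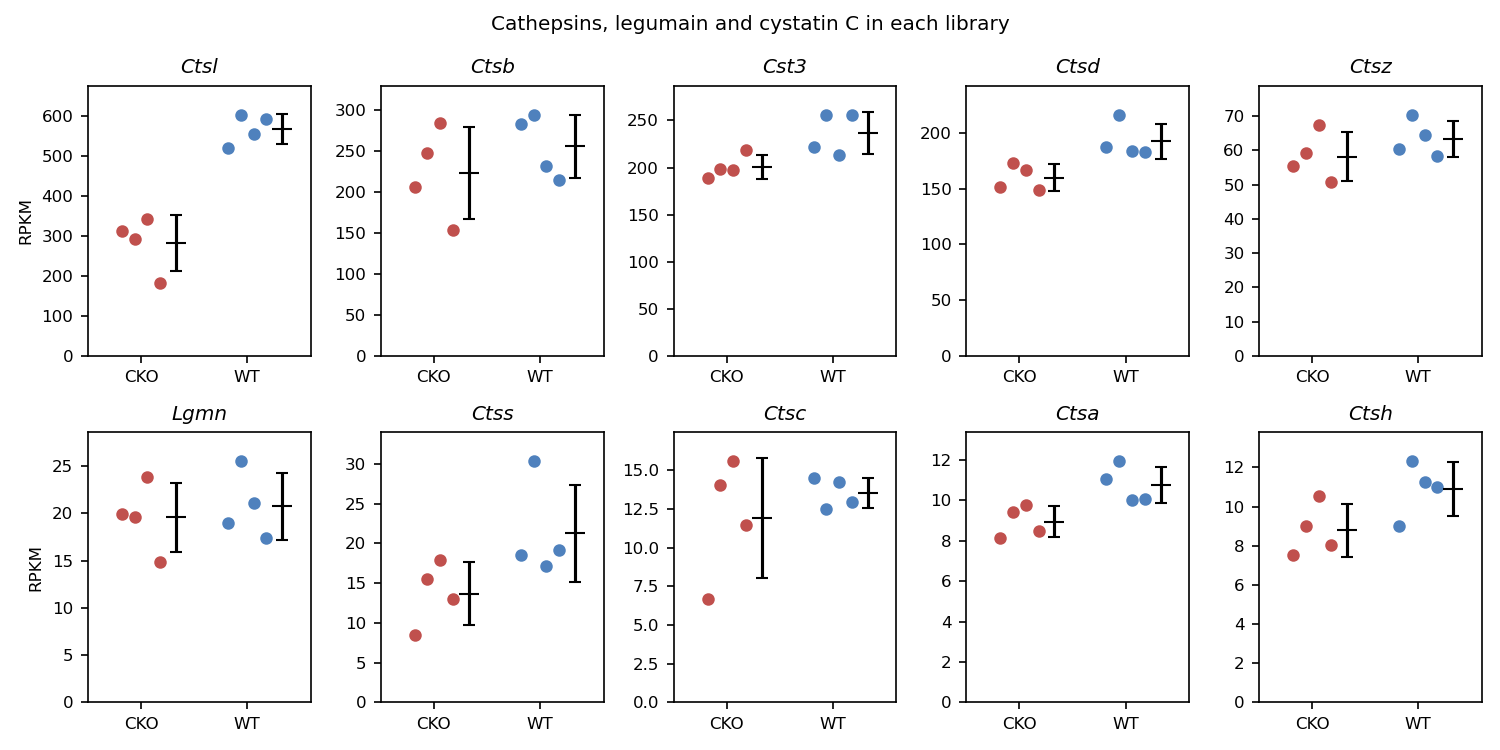
RPKM of each gene (vertical axis, from 0) in the 4 CKO libraries (red) and the 4 WT libraries (blue), in library order within a group, with the mean and SD beside the points. For Ctsl all 4 CKO libraries (182 to 341 RPKM) lie below all 4 WT libraries (520 to 602 RPKM), while for most other genes the groups overlap.

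Ctsl (chromosome 13, 64359337 to 64370890, minus strand) codes for cathepsin L, a cysteine endopeptidase that in the pancreas clips trypsinogen to an inactive form. It had 313, 292, 341 and 182 RPKM in CKO, against 520, 602, 555 and 593 RPKM in WT. Every CKO library lay below every WT library, and CKO4 was the lowest of all. CKO averaged 282 ± 69.5 RPKM and WT 568 ± 37.6 RPKM (SD, n = 4 each), a difference of 2.01-fold (log2 change -1.04, SE 0.17, 95% interval -1.41 to -0.68, adjusted p = 0.00551 by limma). Only 0.493% of tested genes had a more negative log2 change. Ctsl also passed in each of 15 other settings, including the omission of each library, with a log2 change of -1.15 to -0.85 and an adjusted p of 0.00272 to 0.0247. The weakest change, -0.85, was that without CKO4, where the adjusted p was also the lowest.

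Ctsb (chromosome 14, 63122462 to 63145923, plus strand) codes for cathepsin B, the cysteine protease that activates trypsinogen. It had 206, 248, 284 and 154 RPKM in CKO, against 283, 294, 232 and 215 RPKM in WT. The groups overlapped, since CKO3 lay above WT1, WT3 and WT4. The mean was 223 ± 56.0 RPKM against 256 ± 38.5 RPKM (log2 change -0.22, SE 0.18, 95% interval -0.61 to 0.16, adjusted p = 0.439 by limma). CKO4, the lowest library for Ctsl, was the lowest for Ctsb too, and without it the log2 change of Ctsb was -0.06, while without CKO3 it was -0.35.

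Ctsd (chromosome 7, 142375911 to 142388038, minus strand) codes for cathepsin D, an aspartic protease that acts on other cathepsins and broadly on proteins in lysosomes. It had 151, 173, 166 and 148 RPKM in CKO, against 187, 216, 183 and 183 RPKM in WT. The groups did not overlap, but the gap was narrow, with 173 RPKM in the highest CKO library and 183 RPKM in the lowest WT library. The mean was 160 ± 11.9 RPKM against 192 ± 15.9 RPKM, 1.204-fold lower in CKO (log2 change -0.27, SE 0.10, adjusted p = 0.119 by limma), and it did not pass. Of the 10 genes, Ctsl, Ctsd and Ctsa had no overlap between the groups, all 3 lower in CKO, as had 16.2% of all tested genes in that direction.

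Within a library, the ratio of Ctsl to Ctsb set the antagonists at trypsinogen side by side. It was 1.52, 1.18, 1.202 and 1.19 in CKO, against 1.84, 2.05, 2.39 and 2.76 in WT. The ratio was thus lower in every CKO library than in any WT library, with means of 1.27 ± 0.166 and 2.26 ± 0.404 (SD, n = 4 each). The ratio of Ctsl to Ctsd was 1.23 to 2.07 in CKO and 2.78 to 3.25 in WT, and that of Ctsl to Cst3 was 0.835 to 1.73 in CKO and 2.32 to 2.61 in WT. The ratio of Ctsb to Ctsd, which leaves Ctsl out, overlapped between the groups, at 1.04 to 1.71 in CKO and 1.18 to 1.51 in WT. These ratios do not depend on the library total, and no test was made on them, since they rest on the same Ctsl values.

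The summed level of the 10 genes was 964, 1039, 1134 and 810 RPKM in CKO, against 1344, 1531, 1322 and 1375 RPKM in WT. Cathepsin L was the largest part of the sum in 7 libraries, and in CKO4 it came second to cystatin C. It made up 22.5 to 32.4% of the sum in CKO and 38.7 to 43.1% in WT. Without Ctsl the sum of the other 9 genes overlapped between the groups, at 627 to 792 RPKM in CKO and 767 to 929 RPKM in WT.

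**Figure D2:**
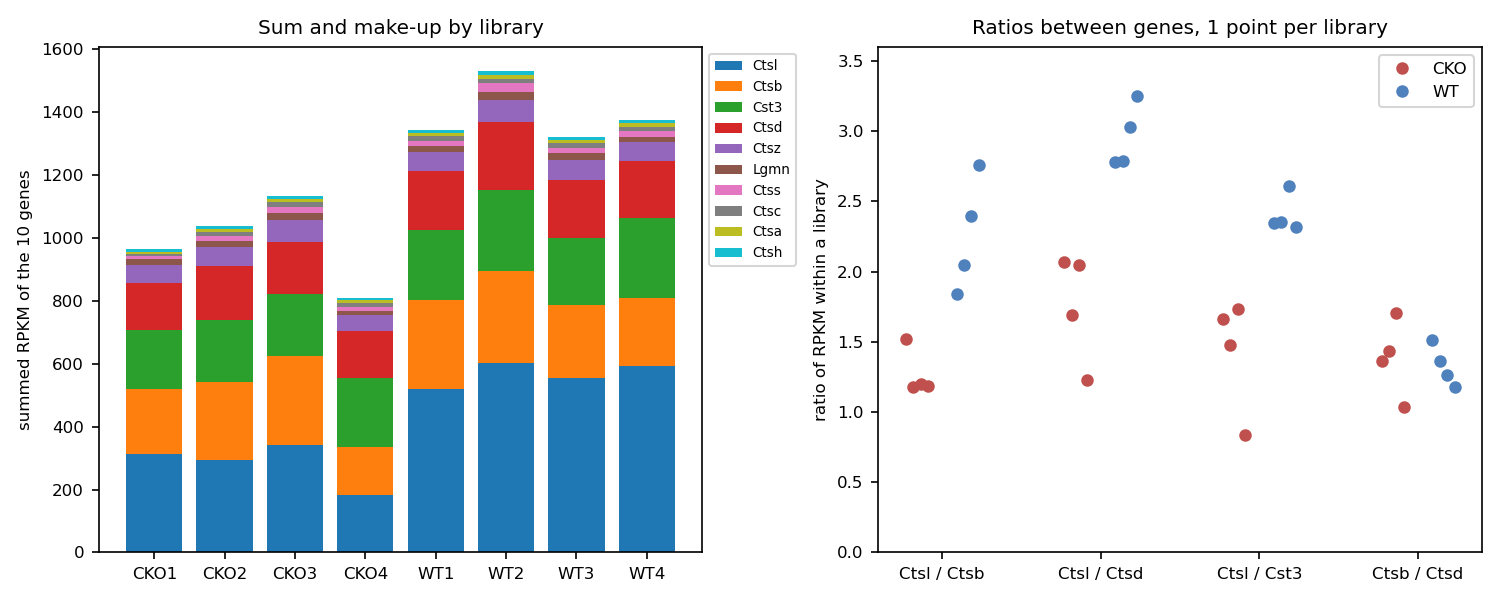
Left, summed RPKM of the 10 genes in each library, with each gene as a coloured layer; right, ratios of RPKM between pairs of genes, 1 point per library (CKO red, WT blue). The Ctsl layer is thinner in every CKO library, and the 3 ratios with Ctsl do not overlap between the groups (Ctsl to Ctsb 1.18 to 1.52 against 1.84 to 2.76), while the ratio of Ctsb to Ctsd does.

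Ctss (chromosome 3, 95526786 to 95556403, plus strand) codes for cathepsin S, a protease of antigen-presenting cells that stays active at neutral pH. Its log2 change was the second most negative of the 10 genes, but it did not pass. It had 8.48, 15.5, 17.9 and 13.0 RPKM in CKO, against 18.5, 30.3, 17.1 and 19.1 RPKM in WT. The groups overlapped by 1 library each, CKO3 lying above WT3, and the extremes were CKO1 and WT2. The mean was 13.7 ± 4.01 RPKM against 21.3 ± 6.09 RPKM (log2 change -0.61, SE 0.22, 95% interval -1.09 to -0.12, adjusted p = 0.105 by limma). Without CKO1 its log2 change was -0.41 and without WT2 it was -0.43. The sum of macrophage markers (13 genes, all above 0 in every library) had the same extremes. It was 188 to 376 RPKM in CKO and 336 to 653 RPKM in WT, lowest in CKO1 and highest in WT2. Lyz2 was its largest part, at 109 RPKM in CKO1 and 434 RPKM in WT2. Csf1r, Cd68, Cd14, Tyrobp, Mrc1, Lyz2 and Fcgr1 were lowest in CKO1. Adgre1, Aif1, C1qa, C1qb and C1qc were lowest in CKO4, and Cd163 in CKO2. Of 11 tested markers 1, Tyrobp, passed, as lower, where 5.74% of all tested genes did. The part of macrophages in the Ctss values was not tested.

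Ctsc (chromosome 7, 88278085 to 88310888, plus strand) codes for cathepsin C, a dipeptidyl peptidase that activates the serine proteases of granulocytes and killer lymphocytes. It had 6.70, 14.0, 15.6 and 11.4 RPKM in CKO, against 14.5, 12.5, 14.3 and 12.9 RPKM in WT. CKO1 was far below the other libraries and CKO3 was the highest of all, so CKO spanned 2.32-fold and WT only 1.16-fold. The log2 change was -0.22 (95% interval -0.66 to 0.21, adjusted p = 0.491 by limma), and without CKO1 it was 0.0051, while without CKO3 it was -0.36. The granule proteases that cathepsin C matures were near or below the detection limit: none of 7 (Elane, Prtn3, Ctsg, Gzma, Gzmb, Mcpt4 and Cma1) was high enough to be tested, and the highest value was 1.05 RPKM, of Gzmb in WT2.

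Ctsh (chromosome 9, 90054152 to 90076089, plus strand) codes for cathepsin H, an aminopeptidase, and Ctsz (chromosome 2, 174427493 to 174439039, minus strand) for cathepsin Z, a carboxypeptidase. Ctsh was at 7.51 to 10.6 RPKM in CKO and 9.03 to 12.3 RPKM in WT (log2 change -0.28, 95% interval -0.57 to 0.0025, adjusted p = 0.187 by limma). Ctsz was at 50.7 to 67.4 RPKM in CKO and 58.5 to 70.3 RPKM in WT (log2 change -0.13, 95% interval -0.38 to 0.12, adjusted p = 0.497 by limma). Without CKO4 the log2 change of Ctsz was -0.06, without WT2 -0.08 and without CKO3 -0.20. Both genes overlapped between the groups and did not pass.

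Ctsa (chromosome 2, 164832873 to 164841032, plus strand) codes for cathepsin A, a serine carboxypeptidase that also protects the lysosomal enzymes neuraminidase 1 and beta-galactosidase in a complex. It had 8.13, 9.42, 9.75 and 8.45 RPKM in CKO, against 11.0, 11.9, 10.01 and 10.07 RPKM in WT. The groups did not overlap, by the small margin of 9.75 against 10.01 RPKM, and the log2 change of -0.24 (SE 0.11, adjusted p = 0.181 by limma) did not pass. Its partners had the same order of groups without passing. Neu1 (neuraminidase 1) was at 2.44 to 2.67 RPKM in CKO and 2.97 to 4.38 RPKM in WT (adjusted p = 0.0895 by limma), and Glb1 (beta-galactosidase) at 5.33 to 5.65 RPKM against 5.70 to 7.47 RPKM (adjusted p = 0.24 by limma).

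Lgmn (chromosome 12, 102394084 to 102439813, minus strand), the legumain gene, differed least. It had 19.9, 19.6, 23.8 and 14.9 RPKM in CKO, against 18.9, 25.5, 21.1 and 17.4 RPKM in WT. CKO3 was the second highest library and WT4 the second lowest, so the groups were interleaved. The log2 change was -0.08 (95% interval -0.42 to 0.25, adjusted p = 0.757 by limma). Its sign changed with median centring, without CKO4 and without WT2, and without CKO3 or WT4 it was -0.18 or -0.16.

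Cst3 (chromosome 2, 148871722 to 148875692, minus strand) codes for cystatin C, which binds papain-family cathepsins and, through another surface, legumain. It had 188, 198, 197 and 219 RPKM in CKO, against 222, 256, 213 and 256 RPKM in WT. CKO4, the lowest library for Ctsl and Ctsb, was the highest CKO library for Cst3, and it lay between WT3 and WT1. The mean was 201 ± 12.8 RPKM against 237 ± 22.4 RPKM (log2 change -0.23, SE 0.10, 95% interval -0.46 to -0.0099, adjusted p = 0.167 by limma), and it did not pass. The summed level of the 6 papain-family cathepsins was 3.16, 3.22, 3.74 and 1.92 times that of Cst3 in CKO, against 4.08, 4.00, 4.20 and 3.55 times in WT. These groups overlapped by 1 library each, and without Ctsl the ratio was 1.08 to 2.01 in CKO and 1.24 to 1.74 in WT.

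By mean level over the 8 libraries the order was Ctsl (425 RPKM), Ctsb (239), Cst3 (219), Ctsd (176), Ctsz (60.8), Lgmn (20.2), Ctss (17.5), Ctsc (12.7), Ctsa (9.85) and Ctsh (9.84), all in RPKM. Ctsl ranked 89th by mean RPKM among all genes of the table. Ctsl stood above Ctsb in all 8 libraries, and in WT the ranges of the pair did not overlap. Ctsb and Cst3 changed places in 1 library of each group, and so did not differ beyond their spread, and the same held for Lgmn and Ctss in WT, for Ctsc and Ctsa in CKO and for Ctsa and Ctsh in both groups. Ctsz was apart from its neighbours in both groups. The order rests on the gene length behind each RPKM value. That length was 11154 bases for Ctsc and 1976 bases for Ctsb, where the longest GENCODE M21 transcripts have 3220 and 4743 bases. Per base of the longest transcript the mean levels would be 44.1 RPKM for Ctsc, 99.8 RPKM for Ctsb, 202 RPKM for Cst3 and 246 RPKM for Ctsl. Sums, shares and ratios of several genes rest on these lengths too.

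The spread within groups had a pattern over the libraries. In CKO, the lowest value of each of the 10 genes was in CKO1 or CKO4, which held 5 each: CKO1 those of Ctsa, Ctsc, Ctsh, Ctss and Cst3, and CKO4 those of Ctsb, Ctsd, Ctsl, Ctsz and Lgmn. These were also the lowest of all 8 libraries. CKO1 had the lowest sum of macrophage markers (188 RPKM) and of neutrophil markers (15.2 RPKM, against 25.2 to 86.4 RPKM elsewhere, with Ly6g at 0 in some libraries). CKO4 had the lowest sum of duct markers (274 RPKM against 360 to 606 RPKM elsewhere) and the highest of acinar markers. The sum of duct markers did not overlap between the groups, at 274 to 521 RPKM in CKO and 541 to 606 RPKM in WT. Of the 5 single duct markers Sox9 alone did not overlap, while Krt19, Krt7, Spp1 and Cftr did. Of 4 tested, 1, Sox9, passed, as lower, as did 5.74% of all tested genes. Acinar markers overlapped, at 102795 to 139347 RPKM in CKO and 119883 to 126056 RPKM in WT. All 5 duct markers were above 0 in every library. The part of these cell types in the values of the 10 genes was not tested.

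**Figure D3:**
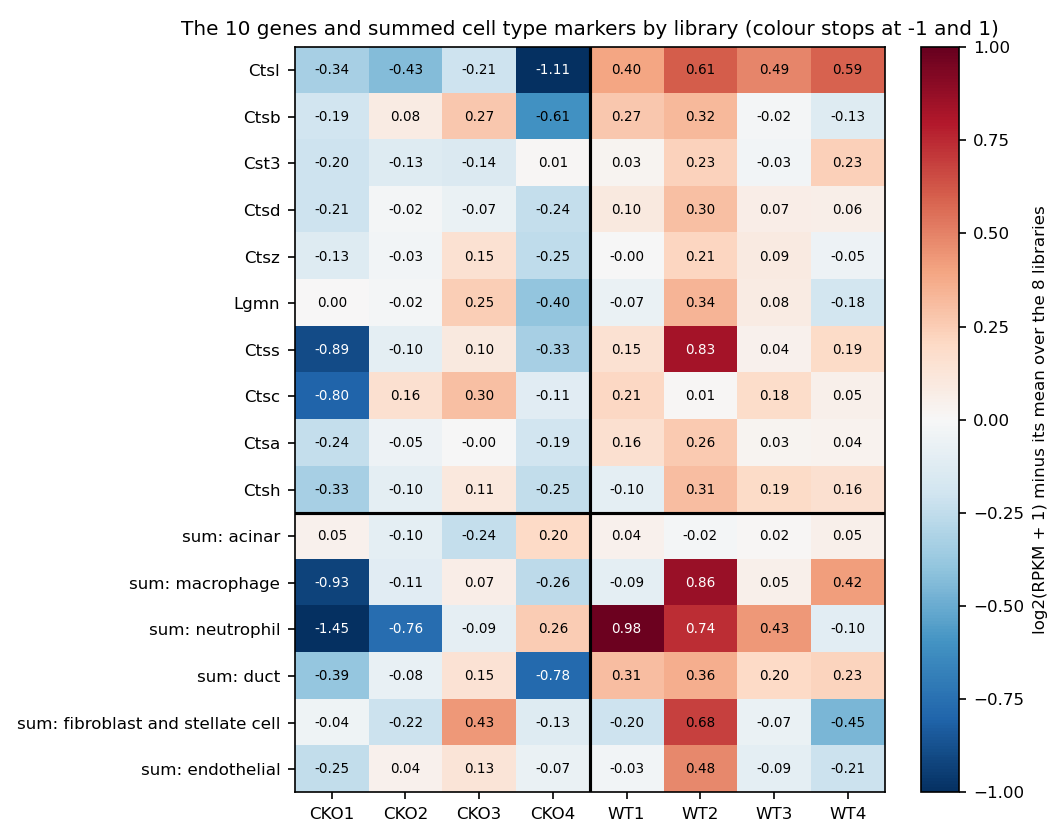
Log2(RPKM + 1) of each gene, and of summed cell type markers, minus its mean over the 8 libraries (blue below, red above, colour stopping at -1 and 1), by library. The row of Ctsl is below its mean in all 4 CKO libraries and above it in all 4 WT libraries, Ctss and the macrophage sum are lowest in CKO1 and highest in WT2, and Ctsl and the duct sum are lowest in CKO4.

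Likeness of pattern was measured as the mean absolute difference, over the 8 libraries, between log2(RPKM + 1) values centred on each gene's own mean, among 4018 other named genes with at least 5 RPKM. The genes most like Ctsl were Nfatc1, a calcium-regulated transcription factor (0.12), and Tob1, an antiproliferative regulator (0.15). Nfatc1 averaged 14.1 RPKM in CKO and 26.0 RPKM in WT (log2 change -0.86, adjusted p = 0.0206 by limma), and its call was lost without WT1, WT2 or WT3 and with no filter on low values (adjusted p of at most 0.0559). Tob1 had a log2 change of -1.08 (adjusted p = 0.00117 by limma), which passed in all 15 other settings. Both genes were picked for their likeness to Ctsl over the same 8 libraries. A lower level in CKO follows from that choice, so their p-values are no separate evidence. Among the other 9 genes described here the one nearest to Ctsl was Ctsh, at 0.38, whereas Ctsa and Ctsd were 0.04 apart. This distance also reflects the size of the changes, which were -1.04 in Ctsl, -0.24 in Ctsa and -0.27 in Ctsd on the log2 scale. Cathepsin A lay nearest to G3bp1 and Lamp1, the latter a main membrane protein of lysosomes, and cathepsin D to Supt16 and G3bp1, all at 0.03 or 0.04. Cathepsin S lay nearest to Lcp1, a leukocyte actin-bundling protein, and Emp3, both at 0.08. The nearest genes were Scamp2 and Sae1 for Ctsb, Map7d1 and Trim35 for Ctsc, Mpdu1 and H2az1 for Ctsh, Laptm4a (a lysosomal membrane protein) and Ddx39b for Ctsz, Bcr and Cdk2ap2 for Lgmn, and Etfb and Abhd17a for Cst3, at 0.03 to 0.08.

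Other genes of the same system were described from lists of related genes. Of 14 other cathepsin genes 6 were in the table and 1 was tested. That was Ctsf, at 2.51 ± 0.422 RPKM in CKO and 2.87 ± 0.175 RPKM in WT (adjusted p = 0.45 by limma). Ctsk, the cathepsin of bone-resorbing osteoclasts, stayed at or below 0.964 RPKM, and the neutrophil protease Ctsg was above 0 in 1 library only, at 0.0317 RPKM. Of 19 other cystatins and related inhibitors 12 were in the table and 2 were tested. Of these 2, 1 fell and 1 rose, where 5.74% of all tested genes fell and 1.42% rose.

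The one that fell was Cstb, the gene of cystatin B, an intracellular inhibitor of cathepsins B, H and L. It had 128, 141, 153 and 84.2 RPKM in CKO, against 215, 192, 190 and 187 RPKM in WT. The groups did not overlap and CKO4 was again the lowest library. The mean was 127 ± 30.2 RPKM against 196 ± 12.9 RPKM, 1.55-fold lower in CKO (log2 change -0.66, SE 0.16, adjusted p = 0.0328 by limma). The call was lost without CKO2 (0.0567), WT1 (0.0937), WT2 (0.0671), WT3 (0.0641) or WT4 (0.0663), with no filter on low values (0.0781) and with limma-voom (0.0514), the numbers being adjusted p. The one that rose was Fetub, of the fetuin branch of the cystatin family, at 2.16 ± 0.682 RPKM against 1.02 ± 0.229 RPKM (log2 change 0.62, adjusted p = 0.0413 by limma), near the lower limit of the test. At this level the pseudocount weighs on the value, and the log2 change was 0.97 at a pseudocount of 0.1 and 1.04 by limma-voom. Its groups overlapped, CKO4 (1.15 RPKM) lying below WT3 (1.27 RPKM), and its call was lost in 9 of 15 settings, among them the omission of CKO1, CKO2, CKO3, WT1, WT2, WT3 or WT4, and its adjusted p reached 0.114.

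Genes that sort hydrolases to lysosomes, among them mannose 6-phosphate receptors, retromer subunits and the transcription factors Tfeb and Tfe3, made a list of 18, of which 14 were tested. By the test over all genes 0 of 14 rose and 0 fell, where 1.42% of all tested genes rose and 5.74% fell. The median log2 change of the 14 was -0.26, against -0.12 over all tested genes. A negative log2 change was seen in 9 of the 14, as in 70.4% of all tested genes. Psap, the precursor of the saposins, was at 47.2 ± 7.56 RPKM against 58.6 ± 10.9 RPKM (adjusted p = 0.204 by limma). M6pr, the cation-dependent mannose 6-phosphate receptor, was at 23.3 to 35.6 RPKM in CKO and 38.7 to 42.2 RPKM in WT, with no overlap (log2 change -0.40, adjusted p = 0.0763 by limma). Vps35, a retromer subunit that returns these receptors from endosomes, was at 14.5 to 18.1 RPKM in CKO and 19.6 to 23.5 RPKM in WT, again with no overlap (log2 change -0.38, adjusted p = 0.0589 by limma). M6pr passed without CKO1 (0.0447), and Vps35 without CKO3 (0.0435) or with library totals that left out the digestive enzymes (0.0421). Tfeb, a master regulator of lysosomal genes, was too low to be tested, at 0.302 to 0.735 RPKM.

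**Figure D4:**
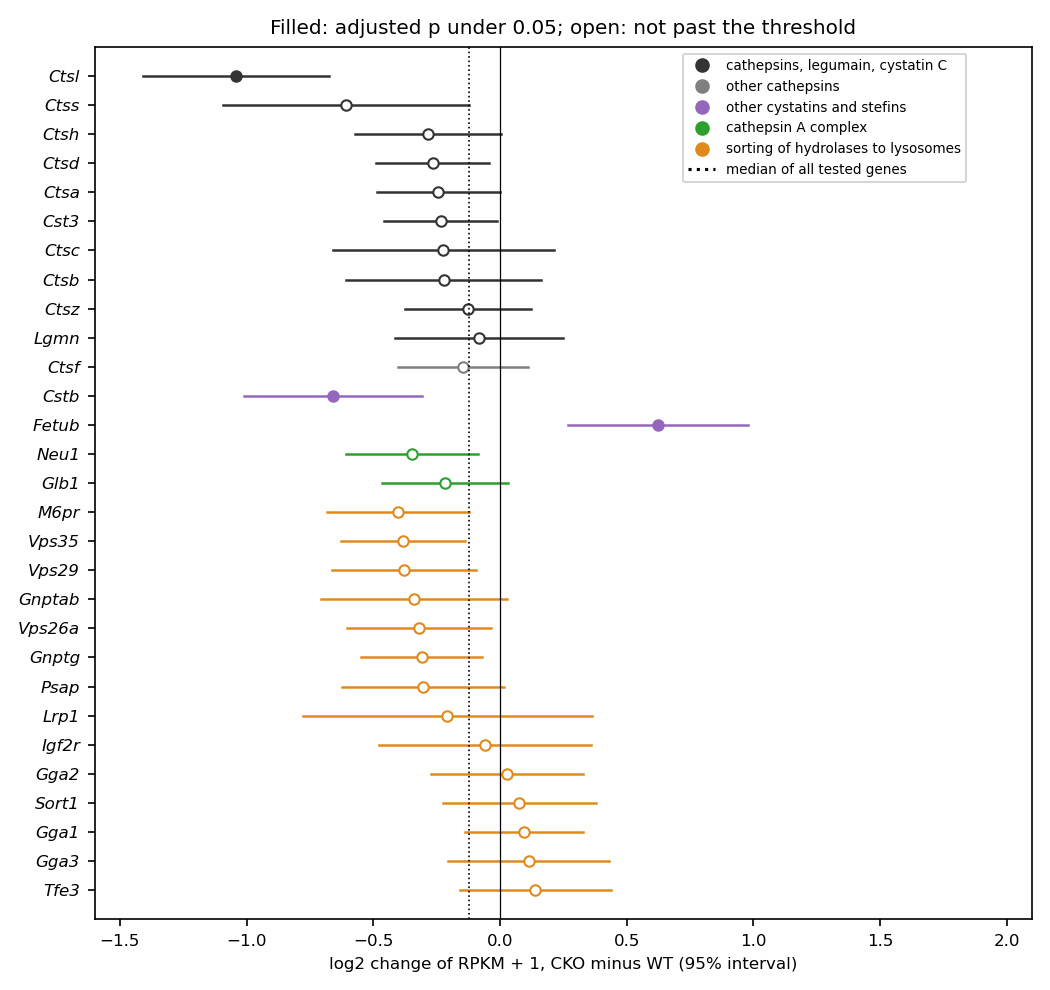
Log2 change of RPKM + 1, CKO minus WT, with its 95% interval, for the 10 genes (black) and the tested genes of 4 related lists (colours); filled points passed the adjusted p of 0.05, and the dotted line is the median of all tested genes (-0.12). Ctsl (-1.04) and Cstb (-0.66) are filled on the lower side and Fetub (0.62) on the higher side, and the remaining points are open.

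Genes of the invariant chain, which cathepsin S trims, and of class II presentation are the next group. Of 6 tested genes 3 fell and 0 rose, where 5.74% of all tested genes fell and 1.42% rose. Ifi30, a thiol reductase of the same endosomal pathway, had 15.9, 15.4, 13.7 and 11.7 RPKM in CKO, against 25.3, 37.2, 27.6 and 31.2 RPKM in WT. It did not overlap between the groups and was 2.14-fold lower in CKO (log2 change -1.04, adjusted p = 0.00126 by limma), a call that held in all 15 other settings. The other 2 were H2-Aa (log2 change -1.15, adjusted p = 0.0349 by limma) and H2-DMb1 (-0.66, adjusted p = 0.0391 by limma). H2-DMb1 was low, at 0.997 RPKM against 2.13 RPKM on average, a 2.14-fold difference, and its log2 change was -1.17 by limma-voom and -1.09 at a pseudocount of 0.1. Omission of CKO1, CKO2, CKO4, WT1 or WT4 ended both calls, omission of WT3 that of H2-Aa and omission of WT2 that of H2-DMb1. Both were also lost with no filter on low values (adjusted p = 0.0755 and 0.0886), and H2-DMb1 with limma-voom (adjusted p = 0.0605). Cd74, the invariant chain itself, was at 17.0 to 33.7 RPKM in CKO and 39.0 to 99.5 RPKM in WT, with WT2 far above the other WT libraries (log2 change -1.04, adjusted p = 0.0763 by limma). H2-Ab1 (adjusted p = 0.0741) and H2-Eb1 (adjusted p = 0.0826) did not pass limma either, and all 3 passed with the replicate number as a block, Cd74 at 0.0384. Markers of antigen-presenting cells are given beside these genes. All 11 tested macrophage markers had a negative log2 change (median -0.59). Of the 11, 1, Tyrobp, passed, as lower, where 5.74% of all tested genes did. Of all tested genes, 70.4% had a negative log2 change, and their median was -0.12. Summed dendritic cell markers were at 1.17 to 1.90 RPKM in CKO and 1.74 to 2.60 RPKM in WT, with Xcr1 and Ccr7 at 0 in some libraries. Cd74, H2-Aa, H2-Ab1 and H2-Eb1 were highest in WT2, as were the macrophage, dendritic cell and B and plasma cell sums. This was not particular to those cells. The T cell, duct, fibroblast and stellate cell, endothelial and adipocyte sums were highest in WT2 too. The part of any of these cells in the class II values was not tested.

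Trypsinogens and their inhibitor are the pancreatic side of the system. Of 11 tested genes, which include the chymotrypsinogen gene Ctrb1, 2 rose, 1 fell and 8 did not pass. Among all tested genes 1.42% rose and 5.74% fell. Try4 rose 1.31-fold (adjusted p = 0.0206 by limma) and Prss3 1.65-fold (adjusted p = 0.0141 by limma), while Spink1, which codes for the acinar trypsin inhibitor, fell 1.51-fold (adjusted p = 0.00551 by limma). The trypsinogens are a family of closely related genes, and how far they share reads was not tested, so the levels of single ones are uncertain. The call of Try4 was lost without CKO2, WT1 or WT2, with median centring and with the replicate block (adjusted p = 0.0537 to 0.0788). Every CKO library had less Ctsl and Spink1, and more Prss2, Prss3, Try4 and Try5, than any WT library. The other tested genes of this list overlapped between the groups. Of all 8513 tested genes, 1589 (18.7%) had no overlap in either direction, and 1380 (16.2%) had none as lower in CKO. Only the small remainder had none as higher in CKO, the direction of Prss2, Prss3, Try4 and Try5. The chymotrypsinogen Ctrb1 (adjusted p = 0.764) and the trypsinogens Prss2 (adjusted p = 0.275) and Try5 (adjusted p = 0.0815) did not pass limma.

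**Figure D5:**
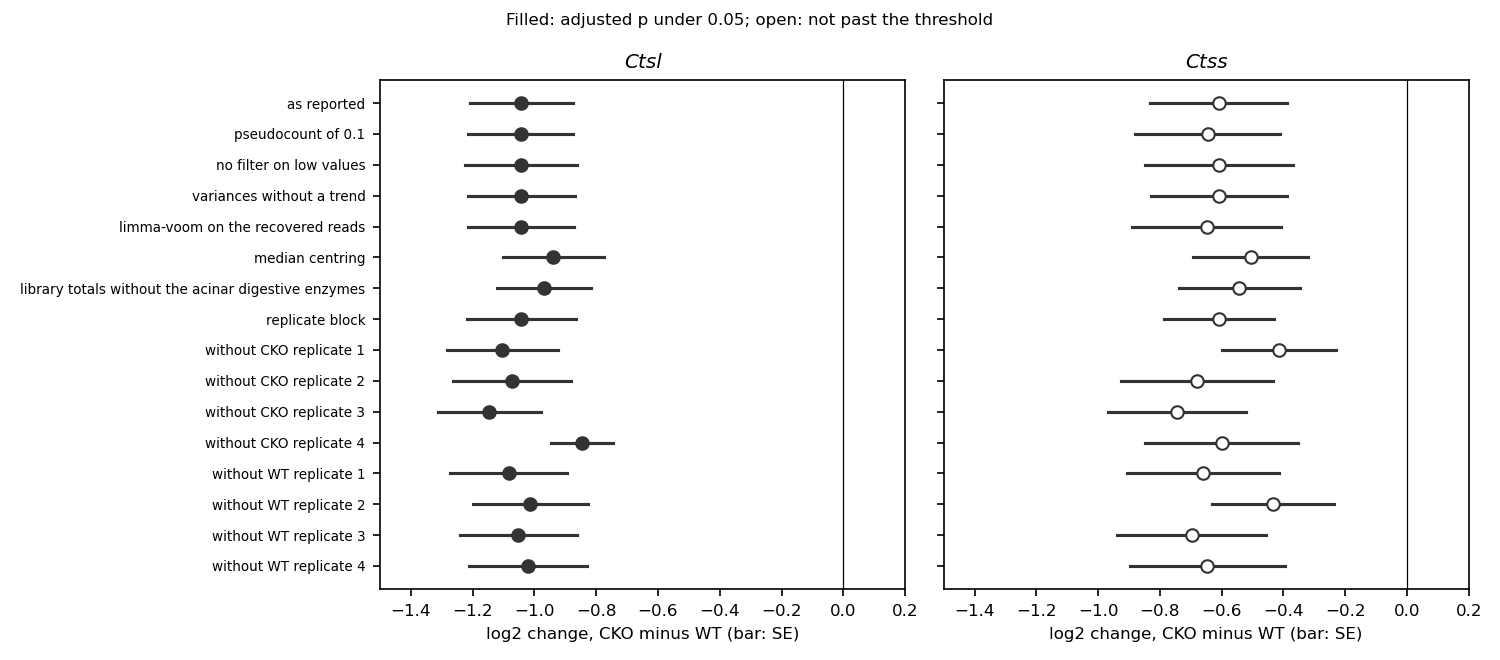
Log2 change of Ctsl (left) and Ctss (right), CKO minus WT, with its SE, as reported and in 15 other settings; filled points passed the adjusted p of 0.05. Ctsl is filled throughout, between -1.15 and -0.85, and Ctss is unfilled throughout, between -0.74 and -0.41.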

How the data were processed

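RNA of 8 pancreas samples was sequenced on an Illumina instrument, per the labels. The genome build was mm10, per the submitters' processing notes, and no source used here names the aligner, the counter or the annotation. The authors deposited 1 value per gene and sample with no unit in the header, and these were taken as RPKM. For 16056 of 16068 genes detected in 2 or more libraries (99.9%), the 10 described included, some gene length turned all values into whole reads (tolerance 0.05 reads). These reads served limma-voom and the library totals. Many lengths were tried for each gene, so genes above 0 in few libraries could find a fitting length by chance. The share of 99.9% is therefore not by itself a test of the unit. One further column, with 8 numbers, was not used.

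limma 3.58.1 in R 4.3.3 was run on log2(RPKM + 1), comparing the groups with no covariate, with trended and robust variances, on the 8513 genes that reached 1 RPKM in 4 or more libraries. Log2 changes are on that scale and folds are ratios of mean RPKM. Python 3.11.15, NumPy 2.4.6 and pandas 2.3.3 were used for description, and Matplotlib 3.10.9 for plots. The recovery of whole reads and the limma fit were tested on simulated data. The genes and lists were chosen with earlier results of these data known. The named genes are all 10 members, Anxa1, from each related list those that passed and up to 3 others of highest mean, and the 2 genes most like each member. Sequences and positions are from GENCODE M21 (mm10). Replicate numbers do not mark pairs in the labels.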

Additional observations from a re-analysis of the deposited data

Results flagged for a closer look

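In WT2, 2 of the 10 genes lay far from the other WT libraries, by Dixon's test on groups of 4. Ctsd was at 216 RPKM in WT2, where the other WT libraries were within 183 to 187 RPKM. Ctss was at 30.3 RPKM in WT2, above the 17.1 to 19.1 RPKM of WT1, WT3 and WT4. In all, 20 groups of 4 were tested, and chance marks about 1 in 20. Without WT2 the log2 change of Ctsd was -0.21 and that of Ctss -0.43, and neither passed.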

How the results depend on the processing

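The count of 1 gene of the 10 past the threshold, Ctsl, was the same in 15 other settings: median centring, totals without the acinar digestive enzymes, no filter on low values, a pseudocount of 0.1, limma-voom, untrended variances, a replicate block, and the omission of each library. Of the log2 changes, that of Ctsc turned to 0.0051 without CKO1 (-0.36 to 0.0051 over single omissions), and that of Lgmn to 0.020 with median centring, 0.035 without CKO4 and 0.016 without WT2 (-0.18 to 0.035 over single omissions); the cause was not tested. Over all genes 610 passed, 489 lower and 121 higher. Omitting single libraries moved this count to between 185 and 686. It was 228 without CKO2, 267 without CKO4, 185 without WT1, 245 without WT2, 297 without WT3 and 254 without WT4. With median centring 267 were lower and 305 higher, and with totals without digestive enzymes 442 and 221, so the balance of directions rested on the scaling. The labels do not say whether the replicate number pairs the samples. Same-numbered libraries had correlations of -0.32 to 0.14 after removal of group means. With 4 libraries per group, these correlations cannot settle whether the samples were paired. With the replicate block 548 genes passed.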
